A study of Mus musculus with 12 samples.

Results

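Immunoglobulin genes were examined in RNA-seq libraries of mouse splenic type 2 conventional dendritic cells (cDC2). The members were chosen by level, in all 12 libraries, and are the rows annotated as immunoglobulin V, D, J or C genes, without pseudogenes, with at least 1 FPKM (fragments per 1000000 assigned fragments and 1000 bases of gene) in 3 or more of them. There were 88 of them among 264 annotated immunoglobulin V, D, J and C genes and 55322 genes in all. They comprised 63 of 218 V segments, 4 of 19 D segments, 12 of 14 J segments and 9 of 13 constant (C) genes. By locus, 31 lay in the heavy chain locus, 48 in the kappa locus and 9 in the lambda locus. Just inside the threshold were Igkv4-92, Igkv4-55 and Igkv6-32, whose third-highest libraries had 1.04, 1.13 and 1.13 FPKM, and just outside were Igkv10-94, Ighv5-4 and Igkv3-5 with 0.997, 0.954 and 0.855.

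The series held 4 groups of 3 libraries, all from the spleens of mice given 5 mg/kg lipopolysaccharide (LPS) intraperitoneally 4 days earlier. Mice were 7 to 8 weeks old. L-cDC2 were the tdTomato-positive and M-cDC2 the tdTomato-negative cells of Il7r-Cre;Rosa26-lsl-tdTomato mice, in which past expression of Cre from the Il7r gene marks a cell and its progeny. The Il7r gene, which encodes the interleukin-7 receptor alpha chain, is active in lymphoid progenitors, so lymphocytes of these mice can carry the label as well. CLP-cDC2 and CDP-cDC2 were CD45.2 cells grown from wild-type common lymphoid progenitors (CLPs) or common dendritic cell progenitors (CDPs) placed in the marrow of CD45.1 B6.SJL hosts, whose own hematopoietic cells remained. The labels name no sort markers, and do not say if replicates are separate animals or if label-positive and label-negative cells were taken from 1 mouse. The p-values therefore cover the spread among these libraries, which may be technical.

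A B cell assembles an antibody heavy chain gene by joining a D to a J segment and then a V segment to that DJ, and a light chain gene, kappa or lambda, by joining V to J. The joined VDJ or VJ exon is spliced to a constant region, Cμ (Ighm) first, and class switching later replaces it with another isotype such as IgG. Constant regions can also be transcribed from unrearranged loci, in transcripts that carry no V segment (germline or sterile transcripts). DJ joints without a V segment have been described in cells other than B cells, plasmacytoid dendritic cells among them. V segment RNA therefore reports on another event than Ighm RNA does.

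The J segments are shown first because each is a short exon that ends the assembled variable region, and 1 of them, Igkj3, differs from the rest in both sequence and level. The sequences are the GENCODE M21 (GRCm38) transcripts with the same gene identifiers, 5′ to 3′. Capitals mark TGGGGNNNNGGN in the heavy chain segments and TTCGGNNNNGGN in the light chain segments, the codons of the tryptophan or phenylalanine and glycine motif of a J segment. TTTGGNNNNGGN was searched as well and found in 0 of 12. The motifs were searched on the transcript strand only and do not overlap. A motif was found in 11 of the 12 J members, 4 with the first and 7 with the second, and in all but Igkj3. For Ighj2, Igkj2 and Igkj5 the gene length used for FPKM, 100, 43 and 42 bases as deposited, is longer than the sequence shown. The heavy chain segments, on chromosome 12, read:
Ighj1: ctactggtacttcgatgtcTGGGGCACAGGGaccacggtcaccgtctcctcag
Ighj2: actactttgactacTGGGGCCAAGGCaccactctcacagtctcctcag
Ighj3: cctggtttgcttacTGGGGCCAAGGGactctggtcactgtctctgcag
Ighj4: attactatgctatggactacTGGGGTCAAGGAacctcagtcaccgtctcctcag
The kappa segments, on chromosome 6, read:
Igkj1: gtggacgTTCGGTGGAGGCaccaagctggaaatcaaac
Igkj2: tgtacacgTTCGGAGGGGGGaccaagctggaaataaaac
Igkj3: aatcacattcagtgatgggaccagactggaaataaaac
Igkj4: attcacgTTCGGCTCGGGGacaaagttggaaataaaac
Igkj5: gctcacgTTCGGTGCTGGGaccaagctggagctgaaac
The lambda segments, on chromosome 16, read:
Iglj1: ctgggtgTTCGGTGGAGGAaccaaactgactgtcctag
Iglj2: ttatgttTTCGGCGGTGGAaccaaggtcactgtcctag
Iglj3: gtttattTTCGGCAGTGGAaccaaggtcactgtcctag
The D segments with the most and the fewest bases among the members are shown because their length limits what can be counted on them:
Ighd1-1: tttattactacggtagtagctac
Ighd4-1: ctaactgggac

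Between 26543345 and 73732243 reads per library were assigned to genes, as recovered from the deposited FPKM. A list of 15 cDC2 genes summed to 8104 to 8708 FPKM in L-cDC2, 9969 to 11642 in M-cDC2, 7124 to 8809 in CLP-cDC2 and 11170 to 12078 in CDP-cDC2. All 15 were at 1 FPKM or more in every library of L-cDC2, M-cDC2 and CDP-cDC2, and 13 were in CLP-cDC2. By the tests described below, 1 of the 15 was higher and 9 lower in CLP-cDC2 than in CDP-cDC2. Against L-cDC2, 2 were higher and 6 lower in CLP-cDC2. Between L-cDC2 and M-cDC2, 1 was higher and 1 lower. Libraries also held RNA of genes that mark other cells. The summed level of 17 B cell genes was 280.5 to 302 FPKM in L-cDC2, 126 to 130.5 in M-cDC2, 148 to 169 in CLP-cDC2 and 125 to 149 in CDP-cDC2, and none of the 17 was at 0 throughout a group. Much of the sum outside L-cDC2 came from Cd79b, Cd22 and Cd72. The B cell receptor chain gene Cd79a stood at 57.8, 51.8 and 50.9 FPKM in L-cDC2 and at 0.139 to 3.51 in the other 9 libraries. A list of 10 T cell genes summed to 44.5 to 59.8 FPKM in L-cDC2, 7.73 to 10 in M-cDC2, 15.2 to 25.5 in CLP-cDC2 and 10 to 13.3 in CDP-cDC2. A list of 10 NK cell genes summed to 261 to 346 FPKM in L-cDC2 and 26.9 to 41.6 in the other groups, and a list of 10 plasma cell genes to 185 to 206 and 117 to 179.8. The B, T, NK and plasma cell sums were all highest in L-cDC2, as were the immunoglobulin sums below. Outside L-cDC2 the lists differed in order. T cell sums were higher in CLP-cDC2 than in M-cDC2, and plasma cell sums were lower (117 to 142 against 153 to 179.8 FPKM). The part of these levels in the immunoglobulin differences was not tested. Fewer cells of a type and less RNA per cell cannot be told apart in these bulk libraries.

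CLP-cDC2 replicate 2 stood apart from the other CLP-cDC2 libraries in immunoglobulin RNA. Its members summed to 1454 RPM (reads per 1000000 assigned reads), against 753 in replicate 1 and 710.4 in replicate 3. Its Cd79a level, 3.51 FPKM, was also above the 0.172 and 0.606 of those libraries, whereas its summed level of the 17 B cell genes, 159.8 FPKM, lay between their 148 and 169. Calls between CLP-cDC2 and CDP-cDC2 and for the difference of differences are given below with and without it.

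Every library contained immunoglobulin RNA, and in the 9 libraries outside L-cDC2 at least 68.8% of it was Ighm. The 88 members together took 3193, 2410 and 2230 RPM in L-cDC2 and 766, 733 and 759.7 in M-cDC2. They took 709.6, 682 and 645 in CDP-cDC2. Ighm alone held 48.5%, 53.6% and 56.0% of the member reads in L-cDC2, 95.4% to 97.6% in M-cDC2 and 92.0% to 94.5% in CDP-cDC2. Its share was 95.9%, 68.8% and 95.2% in CLP-cDC2, with the low value in replicate 2.

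**Figure D1:**
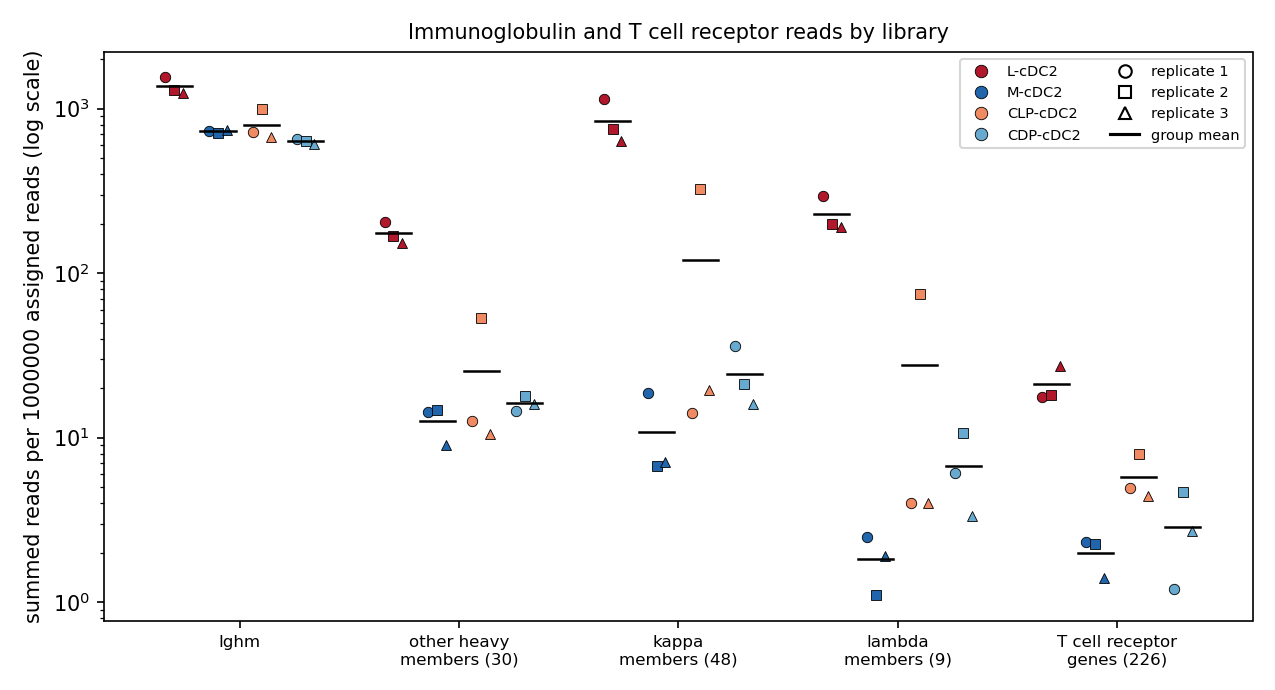
Summed RPM (log axis) of Ighm, the other 30 heavy chain members, the kappa members, the lambda members and all 226 annotated T cell receptor genes, by group; each symbol is 1 library and each bar a group mean. Ighm spans less than the light chain sums do, L-cDC2 libraries are highest in each set, and CLP-cDC2 replicate 2 lies well above the other CLP-cDC2 libraries in the light chain sums.

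The plot of summed reads by locus shows how unequal the loci were. Kappa reads were 1144, 751 and 639 RPM in L-cDC2 and 18.7, 6.74 and 7.09 in M-cDC2. They were 14.2, 326 and 19.6 RPM in CLP-cDC2 and 36.0, 21.3 and 15.9 in CDP-cDC2. Outside L-cDC2, 8 of 9 libraries thus lay at or below 36.0 RPM, and CLP-cDC2 replicate 2 was the exception. Lambda reads followed the same order, at 296, 199 and 191 RPM in L-cDC2, 1.11 to 2.50 in M-cDC2, 3.32 to 10.7 in CDP-cDC2, and 3.98, 74.5 and 4.01 in CLP-cDC2. For scale, the T cell receptor V, D, J and C genes summed to 17.7, 18.2 and 27.4 RPM in L-cDC2 and 1.40 to 2.32 in M-cDC2. T cell receptor and immunoglobulin sums were therefore both highest in L-cDC2.

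The first comparison was between L-cDC2 and M-cDC2, the label-positive and label-negative cells of the reporter mice. By limma on log2(FPKM + 1) with Benjamini-Hochberg adjustment over 14538 genes, 1.29% of all genes were higher in L-cDC2 at an adjusted p under 0.05 and 0.44% were lower. Among the members 61 were higher and 0 lower. This count cannot support the difference. Of the 88 members, 65 reached the threshold only with L-cDC2 libraries, and this choice favours members that are high there. The other 23 passed on the 9 libraries outside L-cDC2 alone, and of these 21 were higher in L-cDC2. The remaining pair, Ighd4-1 and Iglv3, had differences of 1.30 (adjusted p = 0.79) and 1.09 (adjusted p = 0.11). The median difference of all 88 members, likewise a description only, was 3.14 on the log2 scale, against 0.04 for all genes tested. With 1 L-cDC2 library left out the count of higher members was 30 without replicate 1, 27 without replicate 2 and 32 without replicate 3, among 50, 51 and 51 that then passed the level filter.

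Of the heavy chain constant genes, Ighm, which encodes the IgM heavy chain (chromosome 12, 113382178 to 113386350, minus strand, as deposited), had the highest level in every library. It stood at 821, 684 and 662 FPKM in L-cDC2, at 388, 377 and 393 in M-cDC2, at 383, 530.4 and 359 in CLP-cDC2 and at 346, 335 and 323 in CDP-cDC2. All L-cDC2 libraries were above all others, CDP-cDC2 were below all others, and CLP-cDC2 overlapped M-cDC2. By rank of FPKM within the library, Ighm was gene 66 to 84 in L-cDC2 and gene 117 to 192 elsewhere, so it was among the abundant transcripts of all groups. The difference between L-cDC2 and M-cDC2 was 0.90 ± 0.14 (log2, SE; limma adjusted p = 0.0029), which is small beside that of the light chains.

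The remaining heavy chain isotypes were minor. Ighd, which encodes IgD, was at 4.49, 5.45 and 5.71 FPKM in L-cDC2 and 0.409, 1.26 and 0.58 in M-cDC2 (difference 1.85 ± 0.27, SE; limma adjusted p = 0.002). Ighg2c, an IgG heavy chain gene of C57BL/6-type mice, was at 17.3, 15.6 and 18.6 FPKM in L-cDC2 and at 0.217, 0.640 and 0.0148 in M-cDC2. No library outside L-cDC2 exceeded 0.736 FPKM of Ighg2c. Ighg3 was at 2.17, 3 and 1.84 FPKM in L-cDC2 and at or below 0.345 in the other 9 libraries. Ighm made up 95.6%, 94.9% and 94.1% of the summed heavy constant FPKM in L-cDC2 and 98.6% to 99.4% in the other groups. Among the isotypes other than IgM and IgD, Ighg2c held 51.3%, 50.3% and 52.4% of the summed FPKM in L-cDC2 and Ighg2b 39.2%, 37.0% and 37.0%. The constant genes Igha, Ighe, Ighg1 and Iglc4 did not reach the level that defines the members.

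Ighg2b, the IgG2b heavy chain gene, separated CLP-cDC2 from CDP-cDC2. It stood at 13.2, 11.5 and 13.1 FPKM in L-cDC2, 1.64, 2.47 and 1.05 in M-cDC2, 3.16, 2.18 and 2.92 in CDP-cDC2, and 0.341, 0.843 and 1.06 in CLP-cDC2. The CLP-cDC2 libraries were below all CDP-cDC2 libraries, the opposite of the order between L-cDC2 and M-cDC2. Mean levels of Ighg2c (0.259 against 0.38 FPKM) and Ighg3 (0.0682 against 0.14) were also lower in CLP-cDC2 than in CDP-cDC2, but their libraries overlapped. The reads of Ighg2b and Ighg2c may be split in part by the counting, since the reference transcripts are 87.8% identical.

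**Figure D2:**
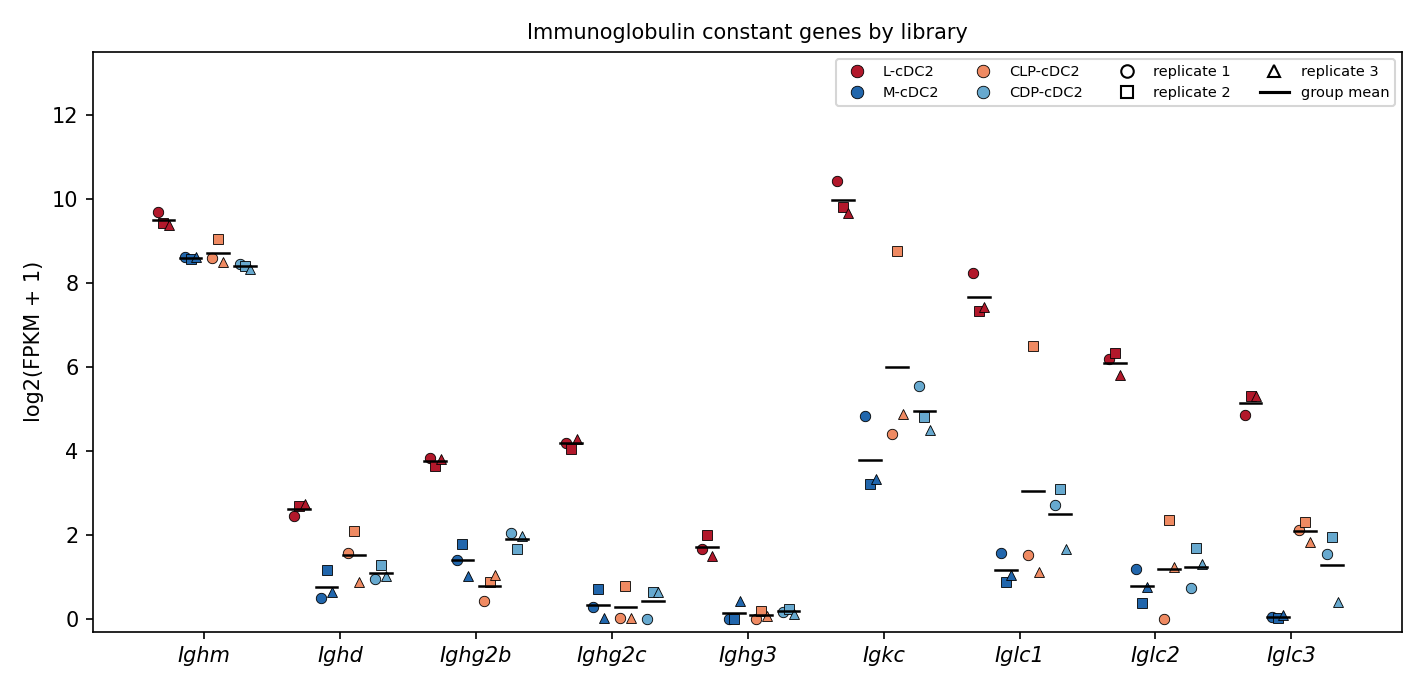
Level of the 9 constant genes among the members as log2(FPKM + 1), by group; each symbol is 1 library and each bar the mean of the log2 values. Ighm lies between 323 and 821 FPKM in every library, whereas the light chain and IgG genes separate L-cDC2 from the rest, with CLP-cDC2 replicate 2 between the groups for Igkc and Iglc1.

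Of the constant genes, those of the light chains had the largest differences between L-cDC2 and M-cDC2, from 5.09 for Iglc3 to 6.49 for Iglc1 on the log2 scale. Igkc, the only kappa constant gene (chromosome 6, 70703419 to 70703950, plus strand, as deposited), ranked as gene 30, 54 and 65 in the L-cDC2 libraries, above Ighm. It ranked as gene 2513, 5662 and 5221 in M-cDC2. Relative to Ighm it was at 1.67, 1.31 and 1.22 in L-cDC2 on the FPKM scale, at 0.0704, 0.0220 and 0.0231 in M-cDC2 and at 0.132, 0.0812 and 0.0672 in CDP-cDC2. In CLP-cDC2 this ratio was 0.0524, 0.809 and 0.0794. Light chain RNA was thus not proportional to Ighm RNA across the groups.

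The lambda constant genes had lower levels. Iglc1 was at 301, 159 and 170.4 FPKM in L-cDC2 and at 1.98, 0.850 and 1.06 in M-cDC2. Iglc2 was at 71.7, 79.2 and 54.9 FPKM in L-cDC2 and at 1.30, 0.299 and 0.708 in M-cDC2 (difference 5.32 ± 0.46, SE; limma adjusted p = 2.3e-05). Iglc3 was at 27.9, 38.4 and 38.4 FPKM in L-cDC2 and at 0.0368, 0.0225 and 0.0653 in M-cDC2 (difference 5.09 ± 0.31, SE; limma adjusted p = 1.5e-06). The groups did not overlap for any of the 3 genes. The reference transcripts of Iglc2 and Iglc3 are 94.9% identical, so their reads cannot be fully told apart, and an exon of Iglc3 overlaps 2010309G21Rik, a long noncoding RNA gene on the opposite strand. No source used here says if reads were counted by strand.

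Iglc3 was also detected in the progenitor-derived cells. It was at 3.39, 3.94 and 2.56 FPKM in CLP-cDC2 and 1.91, 2.87 and 0.321 in CDP-cDC2, all above M-cDC2. Its neighbour Iglj3 was at 3.62, 5.58 and 2.37 FPKM in CLP-cDC2, 0.842, 3.79 and 0.213 in CDP-cDC2 and 0.292, 0 and 0 in M-cDC2. The difference between CDP-cDC2 and M-cDC2 was 1.24 for Iglc3 (limma adjusted p = 0.056) and 1.02 for Iglj3 (adjusted p = 0.18). Neither passed the test.

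Kappa was the major light chain in every library. Igkc held 77.3%, 76.3% and 75.3% of the summed light constant FPKM in L-cDC2, 83.2% to 89.2% in M-cDC2, 79.1% to 84.6% in CLP-cDC2 and 68.2% to 84.8% in CDP-cDC2. The values of L-cDC2 spread least, and those of CDP-cDC2 covered them.

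The heavy chain J segments did not all behave alike. Ighj1, the J segment farthest from Ighm in the locus, was at 262, 157 and 178 FPKM in L-cDC2, 66.7, 71.7 and 50.3 in M-cDC2, 111, 134 and 75.7 in CLP-cDC2 and 40.1, 55.8 and 70.2 in CDP-cDC2. Like Ighm it was present in every library, and it stood at 11.6% to 31.9% of the Ighm level in all 12. Ighj2 was at 149, 117 and 55.2 FPKM in L-cDC2 and at 3.75, 0.203 and 0.394 in M-cDC2. Ighj1 held 36.1%, 29.0% and 40.9% of the summed heavy J FPKM in L-cDC2 and 58.8% to 80.5% in the other 9 libraries, so its share was lowest where the summed level was highest. Ighj3 was at 112, 41.6 and 118 FPKM in L-cDC2, 25.0, 2.33 and 0 in M-cDC2 and 1.47 to 9.51 in the libraries of the other groups. Ighj4 was at 203, 227 and 83.5 FPKM in L-cDC2 and at 9.66 to 55.1 in the other 9.

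The differences between L-cDC2 and M-cDC2 were 1.63 ± 0.26 for Ighj1 (log2, SE; limma adjusted p = 0.0032), 5.64 ± 0.87 for Ighj2 (0.0028), 4.23 ± 0.89 for Ighj3 (0.028) and 3.35 ± 0.44 for Ighj4 (0.00083). Only the call for Ighj3 among the 4 was lost under any alternative (9 of them, adjusted p up to 0.19). M-cDC2 replicate 1, at 25.0 FPKM, was the high M-cDC2 library for Ighj3.

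Kappa J segments were at 82.1 to 377 FPKM in L-cDC2, with the exception of Igkj3. Igkj1 was at 377, 199.6 and 226 FPKM in L-cDC2, 4.38, 5.34 and 4.66 in M-cDC2, 11.2, 60.3 and 9.45 in CLP-cDC2 and 4.68, 4.22 and 6.45 in CDP-cDC2. Igkj2 reached 139 to 272 FPKM in L-cDC2, Igkj4 196 to 279 and Igkj5 82.1 to 202. Igkj3, the segment without the motif in the sequences above, was at 4.40, 4.96 and 2.32 FPKM in L-cDC2, from 6, 5 and 6.5 reads. It was at 0 in the other 9 libraries, where 3 reads would have given 1.41 to 2.32 FPKM. Igkj3 held 0.388%, 0.670% and 0.330% of the summed kappa J FPKM in L-cDC2, although its length of 38 bases equals that of Igkj1 and Igkj4.

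By group mean, Iglj1 and Iglj3 matched Iglc1 and Iglc3 in order of group. Iglj2 did not match Iglc2: its means were 4.37 FPKM in CLP-cDC2 and 5.74 in CDP-cDC2, against 1.83 and 1.46 for Iglc2. The annotated exons of Iglj2 and Iglc2 overlap on the same strand, so reads can be shared between them. Their levels and calls are therefore not independent. Iglj1 was at 351, 121 and 214 FPKM in L-cDC2, Iglj2 at 227, 199 and 172, and Iglj3 at 47.4, 63.6 and 53.2. In M-cDC2 the 3 segments ranged from 0 to 3.37 FPKM. Of the J segments, 11 passed the level threshold without L-cDC2 libraries, all but Igkj3, and all 11 were higher in L-cDC2 than in M-cDC2 by limma, with differences from 1.63 for Ighj1 to 7.18 for Igkj4. Among the light chain J segments the calls for Igkj2, Igkj4 and Igkj5 were lost under 6, 1 and 7 alternatives, with adjusted p up to 0.13.

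D segments are too short to count well. Ighd1-1 (23 bases) was at 4.94, 7.65 and 12.5 FPKM in L-cDC2 and at 0 in M-cDC2, from 4.08, 4.67 and 21.17 reads, which need not be whole since the recovered reads come in fractions. Ighd4-1, the member D segment nearest to the J segments, has 11 bases. It was at 6.33, 8.56 and 2.68 FPKM in L-cDC2, 0, 0 and 16.1 in M-cDC2, 12.9, 0 and 0 in CLP-cDC2 and 0, 3.24 and 4.46 in CDP-cDC2, and no more than 9 reads stood behind any of these values. Groups overlapped for Ighd4-1, and with so few reads a difference was not detectable at this depth.

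V segments of the heavy chain had their highest levels in L-cDC2 and in CLP-cDC2 replicate 2. Their summed FPKM, over all 113 annotated heavy V segments, was 346, 257 and 219.9 in L-cDC2 and 10.8, 0.539 and 2.89 in M-cDC2. It was 0.157, 94.4 and 3.11 in CLP-cDC2 and 11.8, 12.6 and 4.54 in CDP-cDC2. As a percentage of the Ighm level, heavy V segments stood at 42.1%, 37.6% and 33.2% in L-cDC2, at 17.8% in CLP-cDC2 replicate 2, and at 0.0409% to 3.76% in the other 8 libraries. In these 8 libraries Ighm was at 323 to 393 FPKM, so Ighm RNA there stood beside little V segment RNA.

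The kappa locus showed no such gap. Summed kappa V FPKM per Igkc FPKM was 0.819, 0.897 and 0.731 in L-cDC2, 0.975, 0.766 and 0.792 in M-cDC2, 0.447, 0.873 and 0.565 in CLP-cDC2 and 0.715, 0.716 and 0.701 in CDP-cDC2. The groups overlapped, over a range of levels from 8.30 to 1370 FPKM of Igkc. Summed lambda V per summed Iglc1, Iglc2 and Iglc3 was 0.517, 0.442 and 0.457 in L-cDC2, 0.574, 1.01 and 1.18 in M-cDC2, 0.672, 0.681 and 0.622 in CLP-cDC2 and 0.614, 0.773 and 0.630 in CDP-cDC2. For lambda the 3 L-cDC2 libraries were below the other 9, the opposite of the order for the heavy chain. These ratios are given as descriptions and were not tested.

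**Figure D3:**
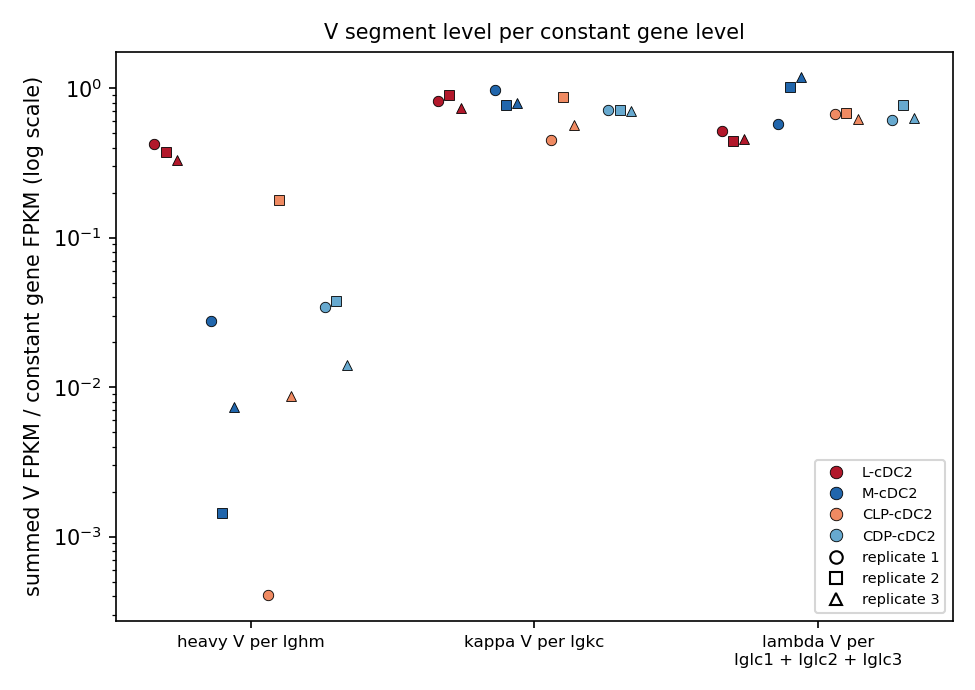
Summed V segment FPKM divided by the FPKM of the constant gene or genes of the same locus (log axis), by group; each symbol is 1 library. Heavy V per Ighm is 0.332 to 0.421 in L-cDC2 and 0.000409 to 0.0376 elsewhere except for 0.178 in CLP-cDC2 replicate 2, whereas kappa V per Igkc stays within 0.447 to 0.975 in all 12 libraries.

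Many V segments were in use in L-cDC2. At 3 or more reads, 55, 50 and 62 of 113 heavy V segments and 71, 72 and 76 of 102 kappa V segments were detected in the 3 libraries. Of these, 32 heavy and 58 kappa segments were found in all 3. In M-cDC2 the counts were 5, 1 and 7 heavy and 15, 11 and 12 kappa segments, and 0 heavy and 1 kappa segment were shared by the 3 libraries. The number of segments found rises with the reads that fall on V segments, so these counts describe the libraries and were not compared. The effective number of segments is 1 divided by the sum of their squared FPKM shares. In L-cDC2 it was 14.4, 16.1 and 19.2 for heavy V and 14.9, 13.8 and 14.6 for kappa V.

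The segments that led differed between libraries of the same group. Ighv1-81 held the largest heavy share in L-cDC2 replicates 1 and 2, with 11.9% and 14.6%, and Ighv1-64 in replicate 3, with 11.4%. Ighv1-81 was at 41.2, 37.5 and 15.7 FPKM in L-cDC2 and at or below 0.596 elsewhere. Ighv1-64 was at 31.8, 18.8 and 25.0 FPKM in L-cDC2 and at or below 0.363 elsewhere. Both belong to the large V1 (J558) family. All 6 heavy V segments with the highest mean, Ighv1-80, Ighv1-81, Ighv1-64, Ighv1-22, Ighv1-53 and Ighv1-18, carry the Ighv1 name.

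Among kappa V segments, Igkv12-46 was at 182, 51.6 and 119 FPKM in L-cDC2 and at or below 0.189 in the other 9 libraries, including CLP-cDC2 replicate 2. Igkv12-41 was at 66.8, 30.5 and 38.5 FPKM in L-cDC2 and at or below 0.308 elsewhere. Other segments were uneven between the L-cDC2 libraries. Igkv1-110 was at 1.65, 139 and 7.47 FPKM there, and Igkv6-20 at 96.1, 1.23 and 9.71. Neither of these passed the test between L-cDC2 and M-cDC2 (differences 3.52 and 3.48, limma adjusted p = 0.48 for both). Of the 63 V members, 37 have a copy among the annotated immunoglobulin genes that is at least 95% identical, so a level can be shared between such segments.

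The V segments Igkv14-111 and Iglv3 were found in all groups, at no more than 3.25 FPKM outside L-cDC2. They were not the only V segments found in all groups: Iglv1 was at 0.378 FPKM or more in every library. By limma, Igkv14-111 was called higher in L-cDC2 than in M-cDC2, and Iglv3 was not. Igkv14-111 was at 13.1, 7.63 and 20.2 FPKM in L-cDC2, 3.25, 2.43 and 2.62 in M-cDC2, 0.800, 2.14 and 1.22 in CLP-cDC2 and 0.892, 2.42 and 1.33 in CDP-cDC2. It held 38.2% and 36.4% of kappa V FPKM in M-cDC2 replicates 2 and 3. Iglv3 was at 2.56, 2.97 and 2.67 FPKM in L-cDC2 and 2.86, 2.07 and 1.79 in CLP-cDC2, which overlap. It was at 0.873, 0.373 and 1.09 FPKM in M-cDC2 and 0.934, 1.5 and 0 in CDP-cDC2. Iglv1 was the main lambda V segment in L-cDC2, with 75.7%, 58.7% and 78.1% of lambda V FPKM, and Iglv2 held 23.0%, 38.9% and 19.7%. The reference transcripts of Iglv1 and Iglv2 are 96.7% identical.

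**Figure D4:**
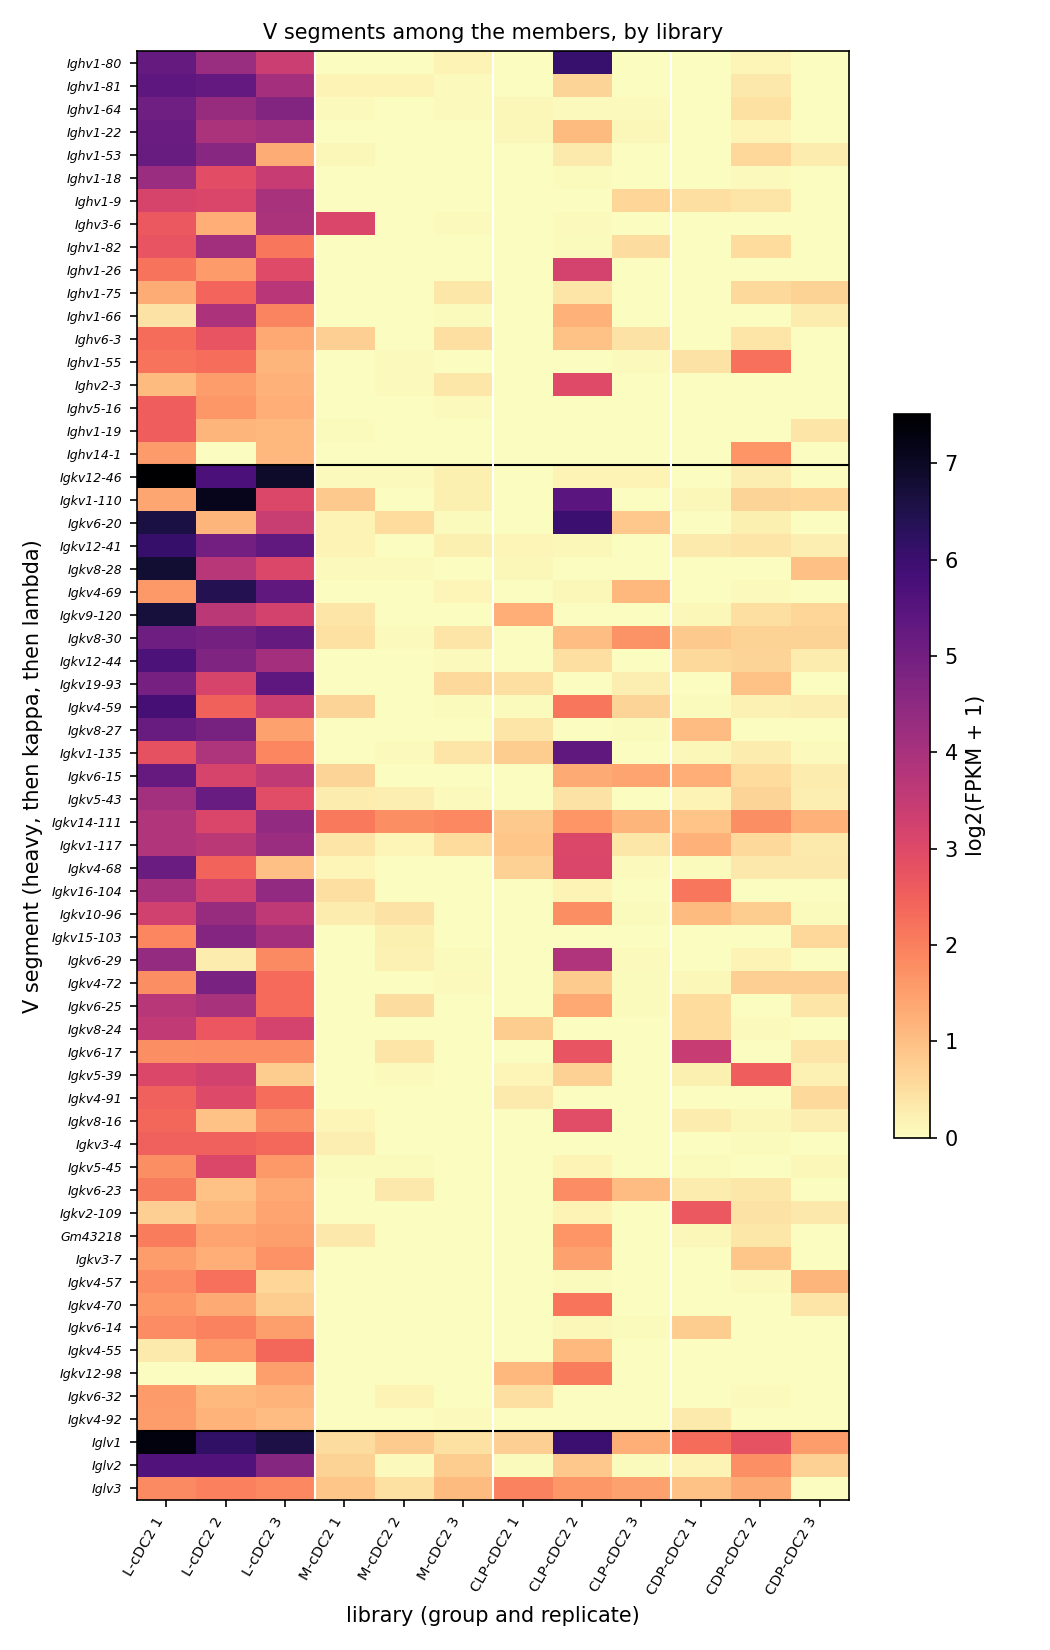
Level of the 63 V segments among the members as log2(FPKM + 1) in each of the 12 libraries, with heavy, kappa and lambda segments in turn and ordered by their mean within each locus. Most segments are dark in the 3 L-cDC2 libraries, CLP-cDC2 replicate 2 is dark in a few such as Ighv1-80 (65.8 FPKM) and Igkv6-20 (63.5 FPKM), and Igkv14-111 is above 0 in all libraries.

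The second comparison was between cells grown from CLPs and from CDPs. By limma, 7.02% of all genes were higher in CLP-cDC2 and 6.12% lower. Among the members 2 were higher, Igkj1 and Ighj1, and 1 was lower, Ighg2b, and 9 had an unadjusted p under 0.05. Of the 88 members, 65 reached the threshold only with L-cDC2 libraries, and 29 were under 1 FPKM in all 9 others. A call was hardly possible here for those 29. The 23 that passed without L-cDC2 libraries held all of these calls, 2 higher and 1 lower. The smaller share of members called than of all genes is therefore a description only, as is the 0 of 63 V segments called. The median difference was 0.13 on the log2 scale for the members and -0.01 for all genes.

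Ighg2b was lower in CLP-cDC2 by a difference of -1.12 ± 0.22 (log2, SE; limma adjusted p = 0.0057), and this call held under every alternative tried. Ighj1 was higher by 0.93 ± 0.26 (adjusted p = 0.032), with all 3 CLP-cDC2 libraries above all 3 CDP-cDC2 libraries. Without CLP-cDC2 replicate 2 the difference was 0.75 ± 0.27 (adjusted p = 0.13). Igkj1 was higher by 1.72 ± 0.50 (adjusted p = 0.042), likewise without overlap, and by 0.90 ± 0.25 (adjusted p = 0.050, not called) without that replicate. The call for Ighj1 was lost under 9 alternatives (adjusted p up to 0.15) and that for Igkj1 under 15 (up to 0.20). A list of 10 plasmacytoid dendritic cell genes was also higher in sum in CLP-cDC2, at 171 to 311 FPKM against 104 to 159 in CDP-cDC2, with replicate 2 the lowest CLP-cDC2 library. Of the 7 of its genes tested, 2 were higher and 1 lower in CLP-cDC2, and their part in these differences was not tested. Iglv3 (0.93 ± 0.29, SE; limma adjusted p = 0.051) and Ighm (0.32 ± 0.14; 0.15) did not pass. Igkc differed by 1.05 on the log2 scale, from 20.1, 429 and 28.5 FPKM against 45.7, 27.2 and 21.7, and its groups overlapped. Without CLP-cDC2 replicate 2 the difference of Igkc was -0.32 ± 0.44 (SE; limma adjusted p = 0.72).

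**Figure D5:**
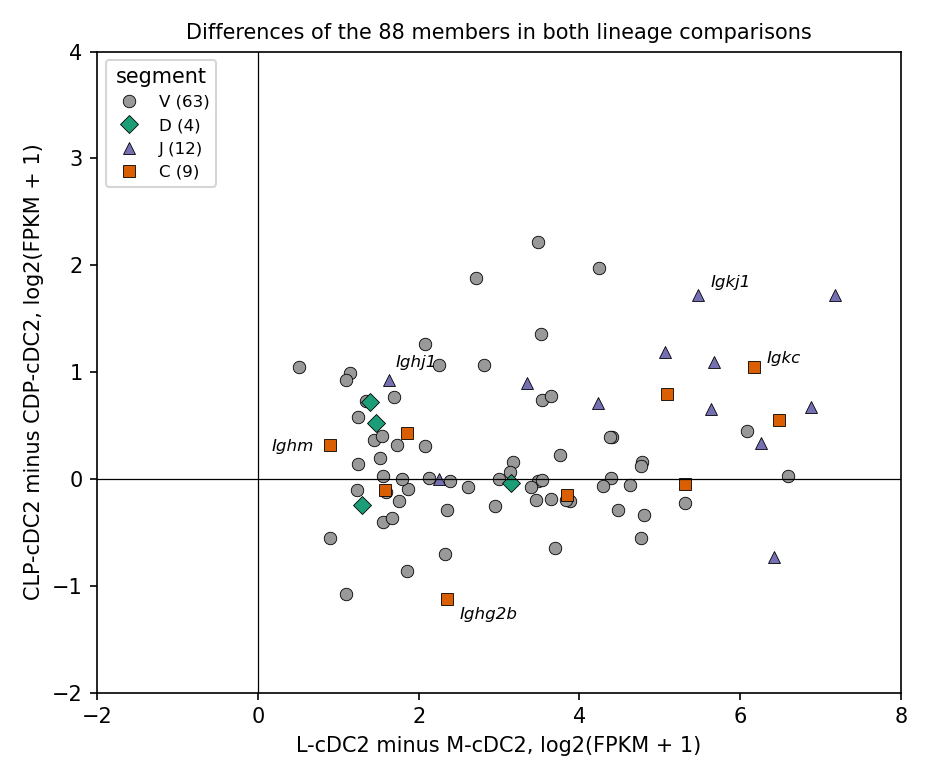
Difference between L-cDC2 and M-cDC2 (horizontal axis) against that between CLP-cDC2 and CDP-cDC2 (vertical axis) for each member, on the log2(FPKM + 1) scale, with symbols by segment class. All 88 members lie to the right of 0 (0.51 to 7.18), whereas on the vertical axis they spread from -1.12 to 2.22 around 0. For 65 members this position was favoured by the choice, since they reached the threshold only with L-cDC2 libraries. The 23 others, not marked here, range from 0.9 to 7.18 and from -1.12 to 1.72.

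CLP-cDC2 replicate 2 accounted for most immunoglobulin RNA beyond Ighm in its group. Its heavy V FPKM were led by Ighv1-80 with 69.7%, and the effective number of heavy V segments was 2. Its lambda V FPKM were 95.6% Iglv1. Its kappa V FPKM were led by Igkv4-74 with 26.0% and Igkv6-20 with 16.9%, and the effective number was 7.30. Igkv4-74, named here after its values were seen, was at 97.6 FPKM in this library and at or below 3.60 in the other 11, so it is not a member. Jchain, the joining chain of secreted IgM and IgA, was at 8.36 FPKM in this library and at 0.550 and 1.01 in the other CLP-cDC2 libraries, and the plasma cell receptor gene Tnfrsf17 was at 1.21 against 0.00614 and 0. Derl3, Txndc5 and Edem1 of the plasma cell list were not higher in this library, with Derl3 at 1.29 FPKM against 1.40 and 3.07, Txndc5 at 22.3 against 27.5 and 24.1 and Edem1 at 8.96 against 11.7 and 13.2. The list summed to 142 FPKM in this library and to 117 and 138 in the others.

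Single segments also led some other libraries with little immunoglobulin RNA, and are named for having the most reads there. Ighv3-6 held 70.1% of heavy V FPKM in M-cDC2 replicate 1, at 7.54 FPKM, and Igkv3-5 63.7% of kappa V FPKM there, at 16.9 FPKM. Ighv5-17 held 76.1% of heavy V FPKM in CDP-cDC2 replicate 1, at 9 FPKM. CLP-cDC2 replicate 1 had 2 reads in all on heavy V segments.

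The difference of differences asks whether L-cDC2 differ from M-cDC2 by more than CLP-cDC2 differ from CDP-cDC2. It was positive and called for 3.61% of all genes and for 54 members, and negative and called for 2.38% of all genes and 0 members. The count of 54 is a description, because for 65 members passing only through L-cDC2 libraries favoured a high level there. Of the 23 that passed without L-cDC2 libraries, 15 were called, and 19 without CLP-cDC2 replicate 2. The count of all members was 55 without that library, 34 without M-cDC2 replicate 3 and CDP-cDC2 replicate 3, and 15, 14 and 19 without L-cDC2 replicate 1, 2 or 3, when 50 or 51 members were tested. Of the 7 constant genes among the 23, 6 were called, 5.37 for Iglc2 (adjusted p = 0.00077) and 3.47 for Ighg2b (9.9e-05) among them. Ighm was the exception (0.58 ± 0.20, SE; limma adjusted p = 0.097), and it was called without CLP-cDC2 replicate 2 (0.75 ± 0.16; 0.031). Of the 11 J segments among the 23, 6 were called. Igkj4 (5.45, limma adjusted p = 0.076) and Igkj5 (5.92, 0.062) had large differences that did not pass, with CLP-cDC2 replicate 2 at 140 and 137 FPKM and the other CLP-cDC2 libraries at or below 2.48. Without that library they were 7.46 (8.9e-05) and 7.94 (0.0001) and both passed.

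Transferred cells were compared with reporter cells last, CLP-cDC2 with L-cDC2 and CDP-cDC2 with M-cDC2. Between CLP-cDC2 and L-cDC2, which differ in lineage label and in transfer, 6.32% of all genes were lower in CLP-cDC2 and 4.29% higher. Among the 23 members that passed without L-cDC2 libraries, 20 were lower in CLP-cDC2 and 0 higher. Several of these calls depended on the processing. The call was lost under 11 alternatives for Ighj1 (limma adjusted p up to 0.17), 7 each for Igkj4 and Iglv1, 6 for Ighd and 3 for Igkc, among others. Ighm was lower by a difference of -0.78 ± 0.14 (log2, SE; limma adjusted p = 0.0041). Between CDP-cDC2 and M-cDC2, 1.62% of all genes were higher and 0.956% lower. Among the members limma called 0 in either direction, with 4 at an unadjusted p under 0.05 and 1 called higher by limma-voom. Both comparisons share samples with those above, so they are not independent of them.

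The other genes of antibody assembly were examined from lists. Of 13 B cell genes tested 8 were higher in L-cDC2 than in M-cDC2 and 7 higher in CLP-cDC2 than in CDP-cDC2. Of 7 plasma cell genes tested 3 were higher in L-cDC2 than in M-cDC2, and between CLP-cDC2 and CDP-cDC2 the counts were 0 higher and 1 lower. Mzb1, a chaperone of IgM assembly, was at 12.2, 10.4 and 11.6 FPKM in L-cDC2 and at or below 2.83 elsewhere, with that highest value in CLP-cDC2 replicate 2. The recombinase genes Rag1 and Rag2, which cut V, D and J segments, and Dntt, which adds bases at the joints, were at 0 in all L-cDC2 libraries and at or below 0.545 FPKM elsewhere. Dntt was at 0.154, 0.545 and 0.113 FPKM in CLP-cDC2. Their list held 8 genes, of which 2 were tested. Il7r was higher in L-cDC2 than in M-cDC2 (0.79, limma adjusted p = 0.039) and in CLP-cDC2 than in CDP-cDC2 (1.0, 0.0035). Vpreb1 was called in neither. Vpreb3, not tested, was at 0.811, 1.14 and 2.23 FPKM in L-cDC2 and at or below 0.689 elsewhere. Igll1 and Vpreb2 were at or below 0.18 in every library. Ighm per Cd79a, on the FPKM scale, was 14.2, 13.2 and 13.0 in L-cDC2 and 151 to 2702 in the other 9 libraries.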

How the data were processed

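The authors deposited a table of FPKM for 55322 genes in 12 libraries (RNeasy micro RNA, SMART-Seq HT and Nextera XT libraries, per the labels' protocols). Per the submitters' processing notes, the tools included STAR 2.7.9a, featureCounts 2.0.1, cutadapt 3.7, DESeq2 1.20.0, Trimmomatic 0.39 and Trim Galore 0.6.7, with no role or order. Builds GRCh38 and GRCm38 are listed there, but the deposited coordinates do not match GENCODE M21 on GRCm38, so their build is not given. Reads were recovered from the FPKM: every value was a multiple of 0.01 read, and 50.9% were whole (tolerance 0.02 of a hundredth of a read), which fits fractional counting of shared reads. For the members 42.7% were whole, and for Igkc 8.33%.

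Groups came from the labels. limma 3.58.1 (trend, R 4.3.3) was fitted to log2(FPKM + 1) of 14538 genes with at least 1 FPKM in at least 3 libraries, over all 4 groups, with Benjamini-Hochberg adjustment and a threshold of 0.05. Fold changes on this scale understate those of low genes. The script was tested on simulated data. Comparisons between genes use FPKM, which is per length, and sums use RPM. Alternatives were 2 other pseudocounts, 2 other filters, quantile and TMM scaling (trimmed mean of M values, computed in R), voom, array weights, a replicate block, fewer groups and each library left out. Leaving out M-cDC2 replicate 3 and CDP-cDC2 replicate 3 together was chosen after seeing the data. The named genes are all C, D and J members, the 6 V segments of each locus with the highest mean, the segment with the most reads in each library and those next to the threshold. The members, lists and tests were chosen with earlier results of these data known.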

Additional observations from a re-analysis of the deposited data

Results flagged for a closer look

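The difference between L-cDC2 and M-cDC2 exceeded that between CLP-cDC2 and CDP-cDC2 for 54 members, by limma's test of the difference of differences. Of the 88 members 65 passed the level threshold only through L-cDC2 libraries, so this count is a description. Of the other 23, 15 were called. Among the constant genes it was 5.94 for Iglc1, 5.37 for Iglc2, 5.12 for Igkc, 4.30 for Iglc3, 3.99 for Ighg2c, 3.47 for Ighg2b, 1.68 for Ighg3 and 1.42 for Ighd on the log2 scale, the last with an adjusted p only just under the threshold. Ighg2c and Ighg3 passed only through L-cDC2, and their values are descriptions. For Igkc and Iglc1 the call was lost under 10 and 11 alternatives, and for Ighd under 16. For Ighg2b it reflects opposite directions, since Ighg2b was higher in L-cDC2 than in M-cDC2 and lower in CLP-cDC2 than in CDP-cDC2.

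Immunoglobulin pseudogenes, which no comparison above uses, held 1.95 RPM on average in L-cDC2 and 0.138 in M-cDC2.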

How the results depend on the processing

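No call for a named member reversed under any alternative. Over 106 calls and 2290 alternatives, 2022 kept their side of the threshold and 268 were lost. The members higher in L-cDC2 than in M-cDC2 numbered 61, 39 with a filter of 5 FPKM, under which 45 members were tested, and 27 to 67 with 1 library left out. The difference of differences was called for 54 members, 34 with that filter, 27 with no filter, 14 to 55 with 1 library left out, and 34 without M-cDC2 replicate 3 and CDP-cDC2 replicate 3 together. Leaving out an L-cDC2 library lowers both counts by construction, since only 50 or 51 members are then tested. Members lower in CLP-cDC2 than in L-cDC2 numbered 63, 40 with the filter of 5 FPKM and 26 to 67 with 1 library left out. These 3 counts include members that passed only through L-cDC2 libraries. Of the 23 members that passed without them, 21 were higher in L-cDC2 than in M-cDC2, 15 were called for the difference of differences and 20 were lower in CLP-cDC2 than in L-cDC2.

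Members higher in CLP-cDC2 than in CDP-cDC2 numbered 2. The count was 0 with no filter, voom, only the compared groups or the replicate block, 1 with TMM factors or without M-cDC2 replicate 3 and CDP-cDC2 replicate 3, and 0 to 3 with 1 library left out. The count lower was 1, and 2 with array weights. Members higher in CDP-cDC2 than in M-cDC2 numbered 0. The count was 1 with a pseudocount of 0.1, the filter of 5 FPKM, voom or without M-cDC2 replicate 3 and CDP-cDC2 replicate 3, 6 with array weights, and 0 to 2 with 1 library left out. Counted per read in place of per length, the mean Ighm share of heavy constant genes was 98.4% in CDP-cDC2 and the Igkc share of light constant genes 77.8% in L-cDC2. The causes of these changes were not tested, apart from the number of members.

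The replicate numbers do not pair the samples by the labels, and deviations of same-numbered libraries correlated at 0.128, -0.224 and -0.076 between L-cDC2 and M-cDC2 and at -0.034, 0.282 and 0.085 between CLP-cDC2 and CDP-cDC2. With the replicate block the members higher in L-cDC2 numbered 61 and those of the difference of differences were 47.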
